A study of Mus musculus with 20 samples.

Results

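St3gal5 and 7 other genes of glycolipid sialylation and glycosphingolipid metabolism were described in the livers of mice that had lived under gamma rays at a low, a medium or a high dose-rate. The 8 genes were St3gal5, its relatives St3gal1, St3gal2, St3gal3, St3gal4 and St3gal6, the glucosyltransferase gene Ugcg and the sialidase gene Neu3. They were 8 of 18193 genes that the platform annotation names by a single symbol, and every probe set with such a symbol was taken, 20 in all. St3gal5 was chosen by its measured signal, which had been found lower in irradiated livers than in control pools, so its difference from control is given here as a description without a test. The other genes were picked for their place in the same chemistry.

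Glycosphingolipids are membrane lipids built by adding sugars to ceramide. Ugcg adds glucose, a galactosyltransferase (B4galt5 or B4galt6) turns glucosylceramide into lactosylceramide, and St3gal5 adds sialic acid to lactosylceramide, which gives GM3, the parent of most gangliosides. St3gal1 and St3gal2 add sialic acid further along the ganglioside series and to O-linked sugars of proteins, St3gal3, St3gal4 and St3gal6 act mainly on sugars of glycoproteins, and Neu3 is a plasma membrane sialidase that takes sialic acid off gangliosides.

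All animals were male C57BL/6J mice kept specific pathogen free, with no genetic change named in the labels. In experiment 1, mice were 8 weeks old when irradiation began and were exposed to caesium gamma rays for 22 hours a day over 485 days, at 0.042, 0.858 or 16.6 mGy per day, which gave 20.6, 416 and 8030 mGy in all. In experiment 2, exposure lasted 401 days at 0.05, 1.00 or 20.0 mGy per day and gave 20, 401 and 8015 mGy. Each dose level of each experiment had 3 arrays of 1 mouse each, named here L1-1 to H2-3 by level, experiment and mouse. Controls were unirradiated mice whose RNA had been pooled onto 1 array per experiment, from 3 animals in the first and 6 in the second, so within an experiment the controls have no spread. The sources used here do not give the time of day at death, the age of the controls or the starting age in experiment 2.

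The arrays gave MAS5 signals, and array medians ran from 81.3 to 105 after the authors' scaling. The Gapdh 3' to 5' ratio, which tracks RNA quality, lay between 0.69 and 0.769 on the arrays of the first experiment and between 0.871 and 0.993 on those of the second. Hepatocyte markers were high on all 20 arrays, with sums over 7 markers from 292000 to 382000. In these whole-liver samples, fewer cells of a type and less RNA per cell cannot be told apart.

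St3gal5 (Entrez Gene 20454) lies on chromosome 6 (GRCm38.p6, chr6:72097552-72154571), and the positions of the other genes below are of the same build. Its promoter window in RefSeq, 250 bases before to 50 after a start site, is chr6:72097358-72097657 on the plus strand. The bases of that window that precede the annotated gene are shown because the window was searched for the D-box. Dbp and Tef, whose patterns over the 20 arrays were the most like that of St3gal5, encode factors that bind it. That likeness, given further on, is over arrays that share 2 high control pools. Other genes led over the 18 irradiated mice with group means removed. The capitals mark a GC box.

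St3gal5 promoter, chr6:72097358-72097551, plus strand: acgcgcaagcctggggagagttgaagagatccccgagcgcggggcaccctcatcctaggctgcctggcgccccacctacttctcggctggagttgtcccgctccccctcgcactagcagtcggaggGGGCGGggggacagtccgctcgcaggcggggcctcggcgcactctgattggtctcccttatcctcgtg

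Over the whole window, 72.7% of bases were G or C, against a median of 52.7% over 32851 promoter windows of the same length. The motifs searched on both strands were the E-box CACGTG, the D-box TTATGNAA and the GC box GGGCGG. The St3gal5 window held 2 GC boxes, which begin at -124 and -46 from the start site of the window. It held neither an E-box nor a D-box, which 7.2% and 3.4% of all windows held, and 35.7% held a GC box. None of the windows of the 6 of 8 genes with an entry in that table held an E-box or a D-box.

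St3gal5 gave its highest signal in the control pool of either experiment and a lower one in every irradiated mouse. With its brighter probe set, the pool of experiment 1 read 2244. In that experiment the low group read 1482, 942 and 1352, the medium group 1256, 1304 and 1323, and the high group 1115, 1243 and 954. All 9 mice lay below the pool, at 42.0% to 66.0% of it. The pool of experiment 2 read 3188. There the low group read 1143, 1272 and 2100, the medium group 1397, 1310 and 1702, and the high group 1463, 1418 and 1505. These 9 mice also lay below their pool, at 35.9% to 65.9% of it, and mouse L2-3 at 2100 stood nearest to it. Of 11216 genes tested, 106 had both pools above all 9 mice of their experiment, which is 0.945%. That pattern follows from the contrast by which St3gal5 was picked.

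The second probe set of St3gal5 gave the same order of pools and mice. The pools read 1679 in experiment 1 and 2971 in experiment 2. The 9 mice of experiment 1 lay between 916 and 1393, at 54.6% to 83.0% of their pool. Those of experiment 2 lay between 1207 and 2006, at 40.6% to 67.5%. No irradiated mouse reached its pool with either probe set. Over the 18 irradiated mice the 2 probe sets had a correlation of 0.732 after group means were removed.

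**Figure D1:**
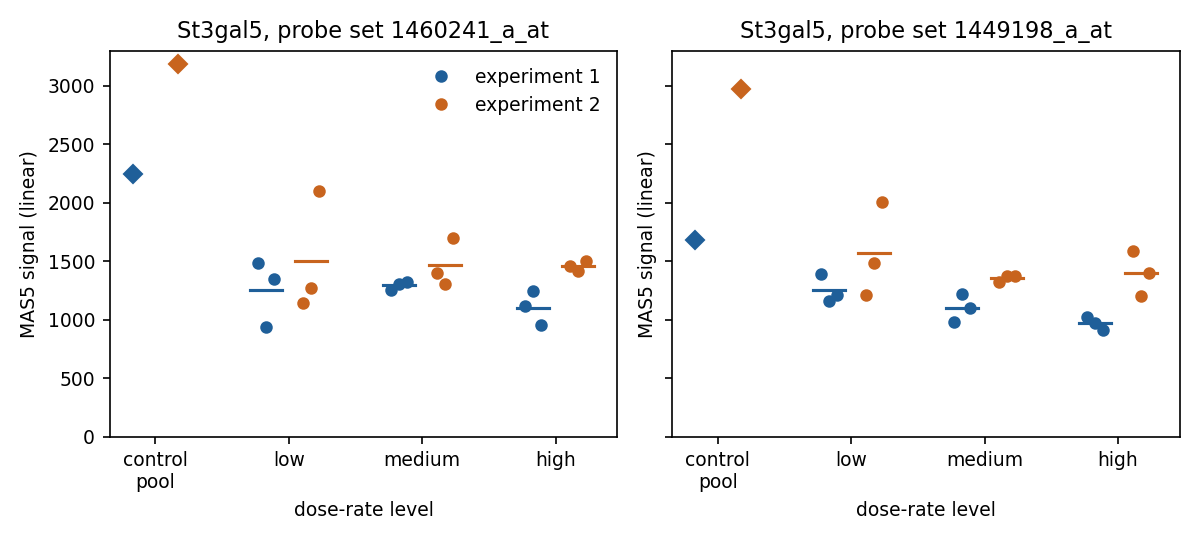
MAS5 signal of St3gal5 on a linear scale against dose-rate level, with the brighter probe set on the left and the second on the right. Diamonds are control pools, circles are single mice, short lines are group means of 3 mice, and colours mark the experiment; both pools (2244 and 3188 with the brighter probe set) lie above all mice of their experiment.

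The log2(signal + 7.12) scale understates changes of low signals. On it, the fitted difference of St3gal5 from control was -1.07 ± 0.18 at the high dose-rate (SE, 6 mice against 2 pools). It was -0.96 ± 0.18 at the medium and -0.99 ± 0.18 at the low dose-rate. These SEs take no account of the choice of St3gal5 by its difference from control, so no interval is given. The 3 levels thus stood at a similar distance from control, and they share the same 2 pools. Within experiment 1 the differences were -1.03, -0.79 and -0.86 at the high, medium and low level, and within experiment 2 they were -1.12, -1.12 and -1.13. With the second probe set the differences from control were -0.94, -0.87 and -0.69 (SE 0.15). As background, limma called 6 of 11216 genes between high and control, which is 0.0535%. It called 3 between medium and control, 0.0267%, and 1 between low and control, 0.00892%. Without the pool of experiment 1 the high-level difference of St3gal5 was -1.19, and without that of experiment 2 it was -0.96.

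In order of mean signal, the 8 groups of St3gal5 ran from the high group of experiment 1 to the control pool of experiment 2. The high group of experiment 1 averaged 1104 ± 145 (SD, n = 3), its low group 1258 ± 282 and its medium group 1294 ± 34.5. The high group of experiment 2 averaged 1462 ± 43.4, its medium group 1469 ± 206 and its low group 1505 ± 519. Neighbouring irradiated groups overlapped in their mice, except that the medium group of experiment 1 ended at 1323 and the high group of experiment 2 began at 1418. The control pools followed at 2244 and 3188.

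Whether St3gal5 followed the dose-rate was asked between the irradiated levels, which its choice did not use. The high group differed from the low group by -0.08 ± 0.13 (95% interval -0.35 to 0.19, adjusted p = 0.873 by limma). The medium group differed from the low group by 0.04 ± 0.13 (interval -0.23 to 0.31, adjusted p = 0.966), and the high from the medium group by -0.12 ± 0.13 (interval -0.39 to 0.15, adjusted p = 0.999). No difference between levels passed the test, although cumulative doses ran from 20 to 8030 mGy. The low group held the widest spread, and without mouse L2-3 the difference of high from low turned to 0.03. With the second probe set the high group differed from the low group by -0.25 ± 0.11 (interval -0.48 to -0.03), with an unadjusted p of 0.028 and an adjusted p of 0.563 by limma over all probe sets.

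No member passed the test between dose levels by limma, and nor did any other gene. The percentage called was 0 in each of the comparisons high against low, medium against low and high against medium. At an unadjusted p under 0.05 there were 1127, 889 and 431 genes in these comparisons. Interaction tests asked whether a member's difference between irradiated levels differed between experiments, and none passed (lowest adjusted p = 0.734 by limma). For differences from control each experiment has 1 pool. The spread between pools was thus not measured, and no test of a change between experiments is given for them.

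**Figure D2:**
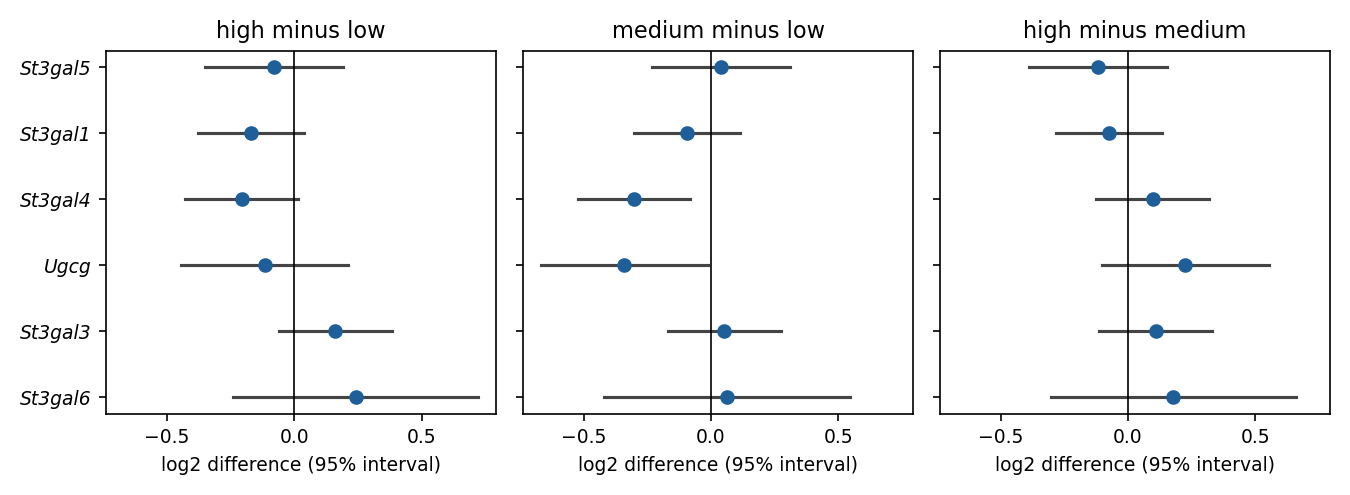
Differences between dose levels for the 6 members that could be tested, on the log2(signal + 7.12) scale, one panel per comparison. Points are limma estimates and lines are 95% intervals; the St3gal5 points lie between -0.12 and 0.04, and 16 of the 18 intervals include 0.

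Between the experiments, St3gal5 was higher in experiment 2 by 0.29 ± 0.10 (adjusted p = 0.0225 by limma). The second probe set gave 0.42 ± 0.08 (adjusted p = 0.000544 by limma over all probe sets). This comparison sets the experiments side by side as wholes, which differed in length, dose-rate and Gapdh ratio, and limma called 4761 of 11216 genes in it, or 42.4%. Over the irradiated arrays alone the difference was 0.27 with an adjusted p of 0.0509 by limma, so the call was lost. Leaving out either pool gave the same 0.27 and is no separate check. The pool that remains is then fitted exactly by its own level term and adds nothing to the difference.

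Ugcg (chr4:59189507-59222833), which makes the glucosylceramide at the root of the series, had 4 probe sets, 1 of them under the filter. With the probe set used in the test over genes the pools read 330 and 317. In experiment 1 the low group read 330, 282 and 297, the medium group 253, 230 and 321, and the high group 281, 320 and 324. In experiment 2 the low group read 320, 233 and 458, the medium group 251, 218 and 216, and the high group 307, 336 and 192. The irradiated groups overlapped within each experiment, and all medium mice lay below their pool. The difference from control was -0.16 ± 0.22 at the high, -0.39 ± 0.22 at the medium and -0.05 ± 0.22 at the low dose-rate, and none passed (adjusted p of 0.864 or more by limma).

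Group means of Ugcg were lowest at the medium dose-rate in each experiment with each of its 3 probe sets above the filter. With the second of them the medium mice read 145, 98.0 and 216 in experiment 1 and 132, 121 and 156 in experiment 2. The low mice read 216, 299 and 311 in experiment 1 and 247, 189 and 201 in experiment 2. Within each experiment every medium mouse lay below every low mouse, although in experiment 1 the closest pair were both at 216 after rounding. The difference of medium from low was -0.74 ± 0.20 (interval -1.16 to -0.32, unadjusted p = 0.00122, adjusted p = 0.543 by limma over all probe sets). With the third probe set it was -0.81 ± 0.28 (unadjusted p = 0.00694, adjusted p = 0.621), and with the first -0.34 ± 0.16 (unadjusted p = 0.0423, adjusted p = 0.611 by limma over genes). The 3 agreed in direction and none passed. High against low gave -0.52 ± 0.20 with the second probe set, -0.21 ± 0.28 with the third and -0.12 ± 0.16 with the first. Against control at the high, medium and low level, the second gave -0.57, -0.79 and -0.05 (SE 0.29). The third gave -0.27, -0.88 and -0.06 (SE 0.39), and none of these passed (adjusted p of 0.759 or more by limma over all probe sets). Without mouse L2-3 the medium against low value of the first was -0.22. Signals of the third did not follow those of the other 2 from mouse to mouse, with correlations of -0.041 and -0.025 over the 18 irradiated mice.

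**Figure D3:**
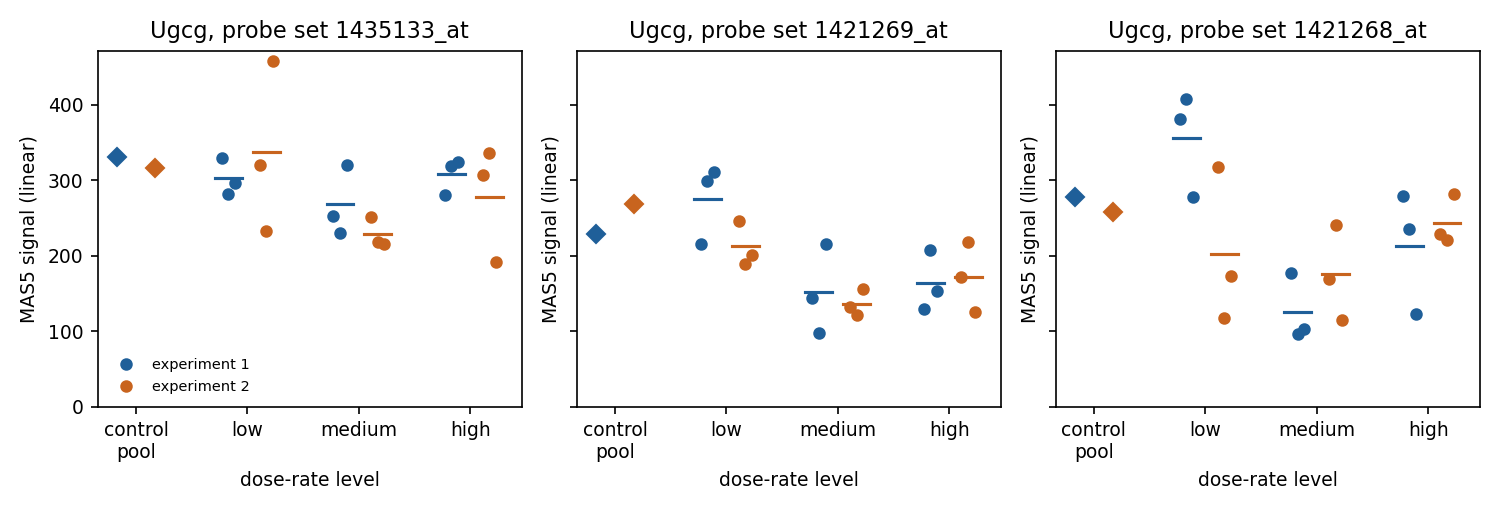
MAS5 signal of Ugcg on a linear scale against dose-rate level, for the first, the second and the third probe set from left to right. Diamonds are control pools, circles are single mice, short lines are group means of 3 mice, and colours mark the experiment; with the second probe set the 6 medium mice lie between 98.0 and 216 and the 6 low mice between 189 and 311.

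St3gal1 (chr15:67102875-67176946) had, after St3gal5, the lowest fitted difference from control at the high dose-rate among the 6 members in the test over genes, each read by 1 probe set. With its brighter probe set the pools read 1185 and 1441. The irradiated mice of experiment 1 lay between 789 and 1258, and those of experiment 2 between 1051 and 1557. In each experiment 8 of 9 mice were below the pool. The difference from control was -0.31 ± 0.14 at the high, -0.24 ± 0.14 at the medium and -0.14 ± 0.14 at the low dose-rate (adjusted p = 0.664, 0.864 and 1.00 by limma), so none passed. Between levels, high differed from low by -0.17 ± 0.10 (interval -0.38 to 0.04). Like St3gal5 it was higher in experiment 2, by 0.35 ± 0.08 (adjusted p = 0.00100 by limma), and over the irradiated arrays alone this was 0.36 with an adjusted p of 0.00197. Its dimmer probe set gave 0.21 ± 0.77 for high against control, the opposite sign.

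St3gal4 (chr9:35046576-35116864), which acts on glycoprotein sugars, had 1 probe set, and its pools read 1052 and 1358. In experiment 1 the low group read 1076, 1012 and 1567, the medium group 1066, 1013 and 1112, and the high group 1103, 913 and 1076. In experiment 2 the low group read 1224, 1312 and 1103, the medium group 912, 808 and 962, and the high group 1097, 1048 and 1024. In experiment 2 all 9 mice were below the pool and the 3 medium mice were the lowest, whereas in experiment 1 the pool lay among the mice. Medium differed from low by -0.30 ± 0.11 (interval -0.52 to -0.08, unadjusted p = 0.00965, adjusted p = 0.496 by limma), which did not pass. It was -0.17 within experiment 1 and -0.44 within experiment 2, and -0.22 without mouse L1-3. Differences from control were -0.20, -0.29 and 0.01 at the high, medium and low level (SE 0.15).

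St3gal3 (chr4:117932152-118134972), also a glycoprotein sialyltransferase gene, stood mostly on opposite sides of its pools in the 2 experiments. With its brighter probe set the pool of experiment 1 read 970 and that of experiment 2 read 1960. In experiment 1 all 9 mice were above the pool, at 122% to 163% of it, and in experiment 2 6 of 9 were below, at 77.4% to 104%. The differences from control were 0.59, 0.45 and 0.47 at the high, medium and low level of experiment 1 and -0.04, -0.11 and -0.24 in experiment 2. The low-level difference thus changed by -0.71 between experiments. Each experiment has 1 pool, so the spread between pools was not measured and no test of this change is given. The irradiated mice were also higher in experiment 2, and the difference between experiments over all arrays was 0.44 ± 0.08 (adjusted p = 0.000192 by limma). Over the irradiated arrays alone it was 0.38 (adjusted p = 0.000608 by limma). The second probe set gave 0.62 ± 0.14. With it 6 of 9 mice were above the pool in experiment 1, at 81.9% to 152% of it, and 7 of 9 below in experiment 2. Its differences from control over both experiments were -0.05, -0.04 and -0.03 at the high, medium and low level (SE 0.25). The brighter probe set gave 0.28, 0.17 and 0.12 (SE 0.15), the opposite sign.

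St3gal6 (chr16:58469742-58524260) had 5 probe sets, 3 of them above the filter. With the probe set used in the test the pools read 142 and 124, and the irradiated mice lay between 75.3 and 263. In each experiment 7 of 9 mice were above the pool. The difference from control was 0.38 ± 0.33 at the high, 0.21 ± 0.33 at the medium and 0.14 ± 0.33 at the low dose-rate, and none passed (adjusted p of 0.826 or more by limma). For high against control, the others above the filter gave 1.09 ± 0.56 and 0.41 ± 0.31. Those under it gave 0.06 ± 0.46 and -0.83 ± 0.45, the last with the opposite sign and pools at 0.70 and 38.3. None of these passed. With the probe set at 1.09, mouse H2-1 read 1645, whereas the other 17 irradiated mice lay between 164 and 670. Medium against low was 0.06 ± 0.23 with the probe set used and 0.88 ± 0.33 with one under the filter, whose signals of 5.63 to 31.9 were far under the array medians.

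St3gal2 (chr8:110919743-110974058) and Neu3 (chr7:99811434-99828457) had all their probe sets, 3 and 1, under the filter, so neither entered the test over genes. The Neu3 probe set read 34.3 and 14.2 in the pools and 4.59 to 126 in the irradiated mice. The 6 low mice read 55.3 to 126, above both pools, while the medium and high groups spread on both sides of them. High against low was -1.23 ± 0.56 for Neu3 (unadjusted p = 0.0392, adjusted p = 0.605 by limma over all probe sets). The brightest pool signal of St3gal2 was 111, and its 3 probe sets gave -1.22 ± 0.56, -0.27 ± 0.60 and -0.15 ± 0.73 for high against control, none of which passed (adjusted p of 0.759 or more by limma over all probe sets). These signals lay near or under the array medians of 81.3 to 105.

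**Figure D4:**
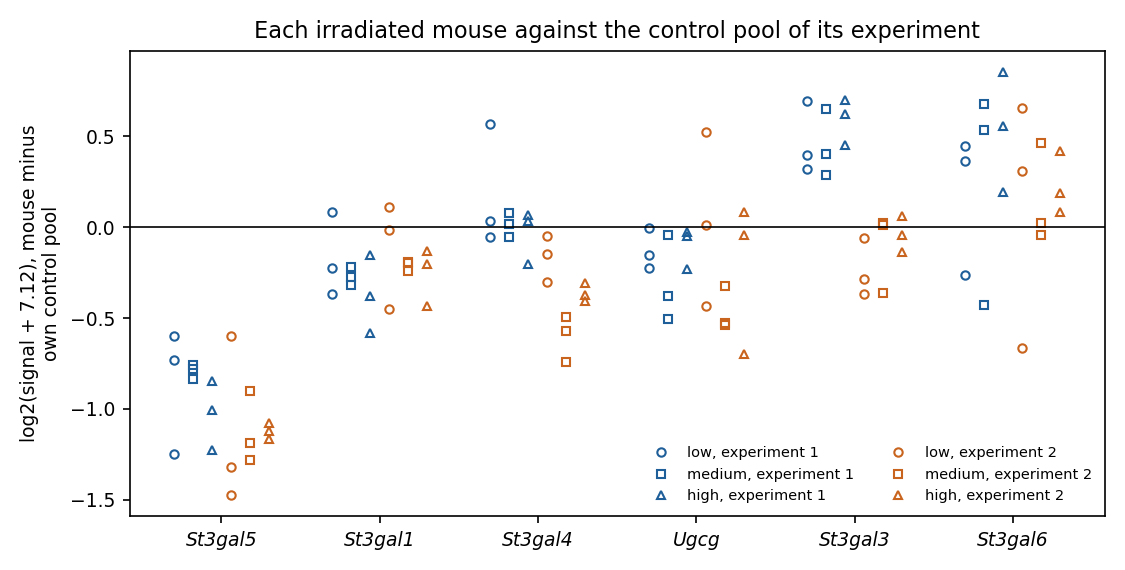
Log2 difference of each irradiated mouse from the control pool of its own experiment, for the 6 members tested. Symbols mark the dose-rate level and colours the experiment, and 0 is the pool; all 18 St3gal5 points lie below 0, and all 9 St3gal3 points of experiment 1 lie above 0, against 3 of 9 in experiment 2.

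Around the members, 6 lists of pathway genes were counted, with 64 of 68 symbols on the array. The list of glycosphingolipid and ganglioside synthesis had 18 genes, and the 10 that passed the filter were all lower at the high dose-rate than in control, with a median of -0.17. At the medium level 9 of 10 were lower (median -0.21) and at the low level 8 of 10 (median -0.18). St3gal5, chosen for being lower, is 1 of the 10 and counts toward each of these. With no filter, 13 of the 18 genes were lower at the high level, 12 at the medium and 12 at the low level. At the high level St3gal5 was past limma's threshold, which is no test because its choice used this contrast, and it was no longer past it without either pool. No other gene of the list was called against control, and 50.4%, 51.2% and 49.9% of all genes were higher at the high, medium and low level. The median of the list at the high level stayed negative under every alternative, but its size and the count of lower genes depended on the pools. Without the pool of experiment 1 6 of 10 were lower at the high level (median -0.13). Within experiment 2 the median was -0.09 against -0.44 in experiment 1.

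B4galt5, the main lactosylceramide synthase, makes the substrate of St3gal5. Its pools read 663 and 726. In experiment 1 all 9 mice lay below the pool, from 205 to 448. In experiment 2 the low mice read 958, 868 and 871, above the pool, the medium mice 410, 612 and 502, and the high mice 449, 531 and 588, below it. High differed from control by -0.77 ± 0.26 (adjusted p = 0.415 by limma) and from low by -0.51 ± 0.18 (unadjusted p = 0.010, adjusted p = 0.301), and neither passed. The other galactosyltransferase, B4galt6, stood at -0.01 ± 0.31 from control at the high level.

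Gne, the bifunctional enzyme that starts the synthesis of sialic acid, was the next gene of these lists by unadjusted p at the high level. Its pools read 4068 and 4238. The high mice read 2353, 2203 and 2403 in experiment 1 and 2387, 2639 and 2578 in experiment 2. The medium mice lay between 2175 and 2925. The low mice lay between 2173 and 4410, and mouse L1-1 at 4410 was the only irradiated mouse above its pool. High differed from control by -0.78 ± 0.16 (unadjusted p = 0.000105, adjusted p = 0.106 by limma) and from low by -0.28 ± 0.12 (adjusted p = 0.409). Of the 46 tested list genes, St3gal5 alone had both pools above all 9 mice, a pattern that follows from the contrast by which it was picked. Among all genes 106 of 11216, or 0.945%, had it.

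In sialic acid supply, 5 of 6 genes were lower at the high level than in control (median -0.12), none called, with Cmah, which hydroxylates CMP-sialic acid, at -0.19 ± 0.14 and Nanp, the phosphatase of the route, at 0.01 ± 0.15. Nanp was 0.34 ± 0.10 at high against low (adjusted p = 0.216 by limma). In ceramide synthesis, 3 of 8 were lower (median 0.04), with Cers4 and Cers6, which are ceramide synthases, at -0.52 ± 0.38 and -0.23 ± 0.21. Against low, the serine palmitoyltransferase subunits Sptlc2 and Sptlc1 were at -0.32 ± 0.15 and 0.16 ± 0.09. In breakdown, 5 of 12 were lower (median 0.04), with Gba2, the non-lysosomal glucosylceramidase, at -0.41 ± 0.24 and the ceramidase Asah1 at 0.17 ± 0.10. Against low, Gm2a, the activator of GM2 breakdown, was at -0.19 ± 0.10 and the ceramidase Asah2 at 0.17 ± 0.11. Among lipid transfer proteins 1 of 4 was lower (median 0.07), with Plekha8 at -0.21 ± 0.17 and Gltp at 0.16 ± 0.21, and Cert1 was at 0.17 ± 0.11 against low. Among other sialyltransferases 1 of 6 was lower (median 0.11). None of these genes passed the test.

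Between the experiments, limma called 21 of the 46 list genes, a share near the 42.4% called among all genes, so the count is not a result about these lists. The glycosphingolipid genes higher in experiment 2 were B4galnt1, the GM2 synthase, by 0.94, B4galt5 by 0.78, St6galnac6 by 0.58 and the sulfotransferase gene Gal3st1 by 0.44, beside St3gal1 and St3gal5. Higher genes of lysosomal breakdown were Neu1 by 0.77, Arsa by 0.68, Psap by 0.67, Glb1 by 0.39 and Hexa by 0.34, together with Asah2 by 0.22. Cers4 was higher by 0.52, Gltp by 0.53 and St6gal1 by 0.25, beside St3gal3. Lower were Cers6 at -0.44, Degs1 at -0.37, Cmah at -0.26, Nanp at -0.23 and Cers2 at -0.18. Of all genes, 57.6% were higher in experiment 2.

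The gene whose signal pattern was most like that of St3gal5 over the 20 arrays, after experiment means were removed, was Dbp (r = 0.85). It encodes a transcription factor of the circadian output that binds the D-box. Tef, which encodes a relative of that factor, came next (r = 0.797), followed by Mfsd2a, a lysophospholipid transporter gene (0.772), Mknk2, a kinase gene (0.746), and Nap1l4, a histone chaperone gene (0.729). The most opposed were Ssr4 (-0.767), Ccdc8 (-0.754) and Nfyc (-0.723). With the second St3gal5 probe set, Tef ranked 1, Dbp 2, Mfsd2a 9, Mknk2 25 and Nap1l4 238 of 11215 genes. These are descriptions over arrays that share 2 high control pools.

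The Dbp pools read 1290 and 2472. In experiment 1 the mice lay between 408 and 739, all below the pool. In experiment 2 they lay between 471 and 1725, also below it, and mouse L2-3, the highest St3gal5 mouse, was the highest of them. The Tef pools read 1758 and 2749, and its mice lay between 1200 and 1514 and between 1446 and 2050. Over the 18 irradiated mice with group means removed, r with St3gal5 was 0.685 for Dbp, 0.42 for Tef, 0.789 for Mfsd2a and 0.715 for Mknk2. With the second St3gal5 probe set these were 0.582, 0.541, 0.647 and 0.403. Without mouse L2-3, r over 19 arrays was 0.839 for Dbp and 0.788 for Tef. Against control at the high level, Dbp stood at -1.55 ± 0.36 and Tef at -0.52 ± 0.12, and neither passed (adjusted p = 0.185 and 0.149 by limma).

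**Figure D5:**
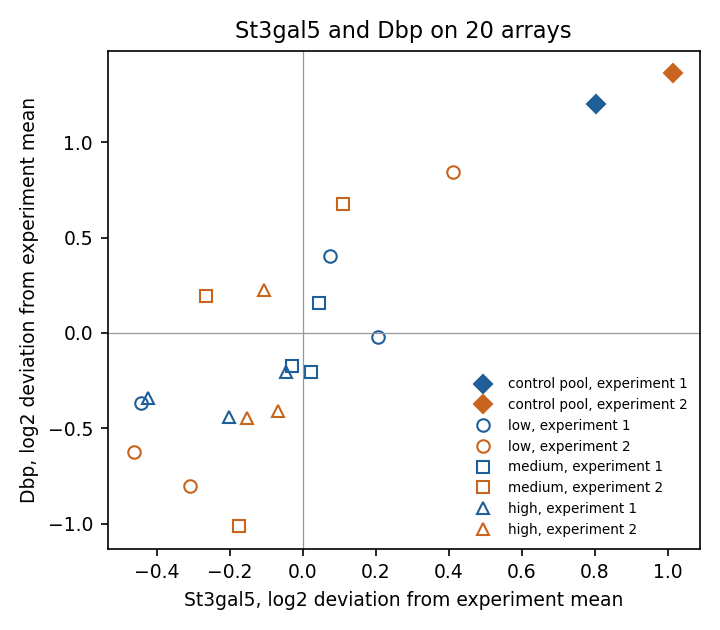
Log2 deviation of Dbp from its experiment mean against that of St3gal5 on 20 arrays. Filled diamonds are the control pools, open symbols are single mice by dose-rate level, and colours mark the experiment; the pools lie at the upper right and r over the 20 arrays is 0.85.

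Over the 18 irradiated mice with group means removed, other genes led. Nap1l4 (r = 0.919), Ly6d (0.903), Rtf2 (0.895), Ermp1 (0.888) and 2010003K11Rik (0.888) were the most alike, and Ankrd33b (-0.89), Dennd2a (-0.88) and Stard4 (-0.868) the most opposed. Nap1l4 was the only gene among the most alike in both orders, and with the second St3gal5 probe set its r over these mice was 0.683. These values are from 3 mice a group and are descriptions.

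Correlations of St3gal5 with the 7 other members were tested over the 18 irradiated mice by permutation within groups, and none passed after adjustment over the 7. The highest were St3gal2 (Pearson r = 0.56, permutation p = 0.0139, adjusted p = 0.0972; Spearman rho = 0.66, permutation p = 0.0101, adjusted p = 0.0708) and St3gal3 (r = 0.56, permutation p = 0.0552, adjusted p = 0.193; rho = 0.53, permutation p = 0.0753, adjusted p = 0.263). Without mice L1-2 and L2-3, which lay farthest from the median of St3gal5, these were 0.46 and 0.43. The St3gal2 value rests on the probe set with the highest mean of its 3, and with the other 2 r was -0.04 and 0.03. St3gal6 had r = 0.51 (permutation p = 0.189, adjusted p = 0.441; rho = 0.46, permutation p = 0.129, adjusted p = 0.301), and 0.28 without those mice. Ugcg had r = 0.41 (permutation p = 0.351, adjusted p = 0.491; rho = 0.18, permutation p = 0.528, adjusted p = 0.739), and 0.14 without them. St3gal1 had r = -0.41 (permutation p = 0.333, adjusted p = 0.491; rho = -0.26, permutation p = 0.474, adjusted p = 0.739), and -0.24 without them. St3gal4 had r = 0.02 (permutation p = 0.977, adjusted p = 0.977; rho = -0.04, permutation p = 0.908, adjusted p = 0.934) and Neu3 r = -0.01 (permutation p = 0.953, adjusted p = 0.977; rho = 0.02, permutation p = 0.934, adjusted p = 0.934). The signals of St3gal2 and Neu3 lay near background, so their values carry that limit.

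Markers of other cell types were read beside these results. Summed B cell markers, 5 of 6 on the array, were 288 and 363 in the pools and 354 to 1104 in the irradiated mice, where every mouse was above its own pool. Only 3 of the 5 passed the filter, so each sum holds dim signals under it. All 3 were higher at the high level (median 0.65, none called by limma). The part of the B cell markers in the St3gal5 difference was not tested. T cell sums (6 of 7 on the array, 2 past the filter) were 341 and 333 in the pools and 285 to 1021 in mice. In experiment 1 all 9 mice, from 445 to 1021, lay above their T cell pool, whereas in experiment 2 the mice lay on both sides of theirs. The part of these markers in the St3gal5 difference was not tested either. Kupffer cell sums were 16000 and 17850 in the pools and 12860 to 22520 in mice, endothelial sums 8424 and 10490 against 7605 to 11520, and stellate cell sums 15040 and 20020 against 13620 to 23450. Cholangiocyte sums (5 of 6 on the array, 3 past the filter) were 228 and 332 against 201 to 524. Adipocyte sums (4 of 5 on the array, 1 past the filter) were 1266 and 1996 against 702 to 2203. For these 5 types each pool lay within the range of the mice of its own experiment. Of the hepatocyte markers 6 of 7 were higher at the high level than in control (median 0.07), and 2 of 3 neutrophil markers were (median 0.01). No marker of these lists was called against control by limma.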

How the data were processed

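Liver RNA was measured on 20 arrays. The authors made the deposited signal intensity values with MAS5, per the submitters' processing notes, which name no version. Of 45101 probe sets, 64 controls were left out. Signals were taken as log2(signal + 7.12), the 10th percentile of all signals. Probe sets with a mean log2 value at or above the median were kept (22519), and 1 probe set per single-symbol gene was used, first those not ending in _s_at or _x_at and then the highest mean, which left 11216 genes. Dose level and experiment were fitted with limma 3.58.1 in R 4.3.3 (lmFit, eBayes with trend, 15 residual degrees of freedom), with Benjamini-Hochberg adjustment over all genes and a threshold of 0.05, and a fit over all 45037 probe sets gave single probe set values. Interactions and values within 1 experiment came from a fit with 8 groups. In it each pool is a group of 1 array fitted exactly, so its spread is that among irradiated mice alone. Correlations used 100000 permutations within groups (scipy 1.17.1, Python 3.11.15). Scripts were tested on simulated data.

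The genes and lists were chosen with earlier results of these data known. Named were the 8 members, list genes called in any comparison, the 2 of each list with the smallest unadjusted p in high against control and in high against low, and the 5 most and 3 least like St3gal5. The number of arrays limits the precision, and p-values of the main limma fit rest on the spread among mice and 2 pools. No 2 arrays were identical (highest correlation 0.943), and 0 columns belonged to no sample. Alternatives covered scaling, pseudocount, filter, probe set choice, model, pool weights and left-out arrays. Promoters are from RefSeq (GRCm38.p6).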

Additional observations from a re-analysis of the deposited data

Results flagged for a closer look

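Among 39 groups of 6 mice at one dose level, taken per probe set after experiment means were removed, 4 had a lowest mouse that stood apart from the rest by more than Dixon's critical share of the range, 0.625. Chance gives about 1 in 20. For the third Ugcg probe set at the high dose-rate it was mouse H1-3 (gap over range 0.718, signal 123), and for St3gal4 at the high dose-rate mouse H1-2 (0.704, signal 913). For the dimmer St3gal1 probe set it was mouse L2-3 at the low dose-rate (0.704, signal 14.3) and mouse M1-3 at the medium dose-rate (0.627, signal 19.1). No group of either St3gal5 probe set was among them.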

How the results depend on the processing

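St3gal5 stayed lower than control at each level under every alternative run, and leaving out 1 array gave -1.19 to -0.96 at the high, -1.07 to -0.84 at the medium and -1.11 to -0.88 at the low level. Its difference between experiments, 0.29, was not called after quantile normalization (0.25) or over irradiated arrays alone (0.27), and ranged from 0.23 to 0.34 with 1 array left out. Counts of genes called moved more. High against control (6) gave 3 with median-centred arrays, with no variance trend or with no experiment term, 15 with every probe set or only the 2 levels, 12 and 1 in experiments 1 and 2 alone, 360 with pools weighted by mice, and 1 (without the pool of experiment 1) to 24 (without that of experiment 2) with 1 array left out. Medium against control (3) gave 1 median-centred or with no trend, 8 with every probe set, 9 with only the 2 levels, 14 in experiment 1, 260 weighted and 1 to 22. Low against control (1) gave 0 with the 25th percentile as pseudocount, no filter, the top 30%, every probe set or only the 2 levels, 11 in experiment 1, 56 weighted and 0 to 12. High against low (0) gave 1 under quantile normalization, median-centring, experiment 1 alone or the replicate block, 2 with every probe set or no trend, and 0 to 17 (without L2-3). Medium against low (0) gave 2 in experiment 2, and the experiment difference (4761) gave 9257 with every probe set. Pathway-list genes called against control at the high level (1, St3gal5 itself, chosen on this contrast) were 0 with no trend, no experiment term or either experiment alone, 2 with only the 2 levels, 3 weighted and 0 to 2 with 1 array left out. At the medium level (0) they were 1 with only the 2 levels, 2 weighted and 0 to 1, and at the low level (0) 2 weighted and 0 to 2. The cause was not tested. A filter on mean linear signals, tried after seeing the data, gave 7, 4 and 1 genes at the high, medium and low level. The correlation of St3gal5 with St3gal2, 0.56, was -0.04 and 0.03 with the other St3gal2 probe sets, also tried after seeing the data. Of 2355 other member values, 5 changed call and 92 uncalled ones changed sign.

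With a replicate block over the irradiated arrays, St3gal5 differed by -0.08 between high and low and by 0.04 between medium and low, and no member was called. Same-numbered mice correlated at -0.152 to 0.3 over 18 pairs, 8 of them over 0.1, and the labels name no shared animal, litter or day. The numbers were not taken as pairs because not every pair was over 0.1, although 14 of 18 arrays correlated best with their own number, which is a hint from the data that they may share something.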
